A study of Mus musculus with 2 samples.

Results

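The replication-dependent histone genes encode the core and linker histones that package newly made DNA, and their expression was compared between a pool of mouse epidermis labelled as a keratinocyte knockout (KO) of the vitamin D receptor and a pool from littermates. The members were all probes whose gene symbol began with Hist1h, Hist2h, Hist3h or Hist4h, sorted into the classes H1, H2A, H2B, H3 and H4 by the letters that follow. This gave 60 of the 25697 probes on the array, for 55 genes. There were 6 H1, 15 H2A, 16 H2B, 12 H3 and 11 H4 probes. The members were picked by name, with earlier results of these data known, so their values are given as a description.

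The pool labelled KO held epidermal RNA from 3 mice that carried floxed alleles of the vitamin D receptor gene (Vdr) and a Cre transgene under the keratin 14 promoter, an epithelial promoter of the basal layer. The control pool (CON) held RNA from 3 littermates with the floxed alleles and without Cre. All were C57BL6 pups at postnatal day 5, and the epidermis of the back skin was freed from the dermis with dispase. Each genotype was read once, as 1 pool on 1 array. Replicate spread is therefore unknown, the differences are given without tests, and precision is limited by having only these 2 arrays.

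Nucleosomes wrap DNA around an octamer of H2A, H2B, H3 and H4, and the linker histone H1 sits where DNA enters and leaves. The genes of these histones lie in clusters, are transcribed mainly in S phase, and most of their mRNAs end in a stem-loop in place of a poly(A) tail. In epidermis, dividing cells are found in the basal layer and in growing hair follicles. How the labelling reaction was primed is not stated in the labels, so how well mRNAs without a poly(A) tail were labelled is unknown.

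Several H2A and H2B genes are arranged head to head and share the DNA between their starts. Such pairs were searched among the 50 of the 55 member genes with a listed promoter, so others may be missed. Of 6 pairs found (starts on opposite strands, under 500 bases apart), 4 had both genes detected. Their shared intervals are shown because the H2A and H2B partners differed in the size of their change. All lie on chromosome 13, in the Hist1 cluster, and are 163 to 248 bases long. They are read 5′ to 3′ towards the H2A gene, from RefSeq's promoter table of GRCm38.p6. The positions are chr13:21753913-21754075 on the minus strand, chr13:22035644-22035820 on the minus strand, chr13:22042950-22043197 on the minus strand and chr13:23574208-23574380 on the plus strand. Capitals mark 3 motifs on either strand, which are CCAAT of the factor NF-Y, the TATA box motif TATAAA, and the octamer motif ATTTGCAT of Oct-1 (Pou2f1).
Hist1h2ak and Hist1h2bn: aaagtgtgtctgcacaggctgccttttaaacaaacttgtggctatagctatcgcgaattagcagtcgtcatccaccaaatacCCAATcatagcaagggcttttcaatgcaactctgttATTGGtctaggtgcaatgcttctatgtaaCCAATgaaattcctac
Hist1h2ah and Hist1h2bk: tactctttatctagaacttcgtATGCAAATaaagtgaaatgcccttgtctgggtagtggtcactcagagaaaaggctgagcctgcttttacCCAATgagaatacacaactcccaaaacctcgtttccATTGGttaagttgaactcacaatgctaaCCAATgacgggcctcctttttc
Hist1h2ag and Hist1h2bj: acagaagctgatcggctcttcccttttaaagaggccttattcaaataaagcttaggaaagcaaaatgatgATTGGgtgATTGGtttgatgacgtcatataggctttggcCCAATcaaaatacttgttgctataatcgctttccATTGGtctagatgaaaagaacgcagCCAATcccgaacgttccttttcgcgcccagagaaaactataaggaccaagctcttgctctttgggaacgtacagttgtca
Hist1h2ad and Hist1h2bf: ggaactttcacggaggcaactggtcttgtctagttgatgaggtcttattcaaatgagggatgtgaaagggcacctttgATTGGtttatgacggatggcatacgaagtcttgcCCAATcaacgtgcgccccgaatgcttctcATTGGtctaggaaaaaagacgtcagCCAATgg

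CCAAT stood in all 4 intervals, with 3, 3, 5 and 4 matches in the order printed. ATTTGCAT stood in 1 of them, and TATAAA in none. A match is a description of the letters only, and no overlap between motif matches was found in the members' windows.

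Outside these pairs, the 250 bases before the start are shown for the H1, H2A and H3 gene with the largest log2 change among detected members that have a promoter in the table. These are Hist1h1c (chr13:23738557-23738806, plus strand), Hist1h2an (chr13:21787249-21787498, minus strand) and Hist1h3e (chr13:23562386-23562635, minus strand), with the same motifs in capitals.
Hist1h1c: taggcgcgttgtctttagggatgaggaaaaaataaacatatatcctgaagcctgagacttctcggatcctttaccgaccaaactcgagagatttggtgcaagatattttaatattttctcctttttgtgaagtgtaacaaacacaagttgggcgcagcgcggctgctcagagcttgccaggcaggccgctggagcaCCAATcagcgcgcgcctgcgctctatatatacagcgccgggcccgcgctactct
Hist1h2an: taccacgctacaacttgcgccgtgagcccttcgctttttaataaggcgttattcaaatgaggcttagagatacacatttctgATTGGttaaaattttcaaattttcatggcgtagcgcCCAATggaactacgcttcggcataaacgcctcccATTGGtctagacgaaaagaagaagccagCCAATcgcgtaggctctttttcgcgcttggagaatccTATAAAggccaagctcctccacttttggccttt
Hist1h3e: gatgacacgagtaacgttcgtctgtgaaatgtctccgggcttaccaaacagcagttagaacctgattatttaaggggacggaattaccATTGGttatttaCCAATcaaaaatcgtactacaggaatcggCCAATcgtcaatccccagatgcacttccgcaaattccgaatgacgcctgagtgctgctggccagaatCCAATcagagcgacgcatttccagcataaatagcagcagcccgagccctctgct

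Promoter windows were found for 50 of the 55 genes, and the 250 bases before each start were searched on both strands. CCAAT stood in 33.8% of all 32851 windows in the table. Counted by member gene with a window, it stood before all 6 H1, all 15 H2A and all 12 H2B genes. It also stood before 6 of 7 H3 and 2 of 10 H4 genes. ATTTGCAT stood before 7 of 15 H2A and 7 of 12 H2B genes and none of the H1, H3 or H4 genes, against 1.6% of all windows. Since paired H2A and H2B genes share DNA, their windows are not separate observations. TATAAA stood before 25 of the 50 genes, against 12.4% of all windows. The member counts are of genes and the percentages of single windows, so their units differ.

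Signals were read as the average brightness of a probe's beads. They were corrected for background, normalized between the pools and put on the log2 scale, so that a log2 change is KO minus CON. Detection required a p-value under 0.01 in at least 1 pool, where the detection p-value is the share of negative control beads at least as bright as the probe. Of the 60 histone probes 35 were detected, for 34 genes, and 33 of them in both pools. By class these were 2 H1, 11 H2A, 8 H2B, 7 H3 and 7 H4 probes. The probe sequences were not used here, and many genes within a core histone class are much alike in their coding parts. A probe may therefore read transcripts of several genes of its class, and the probes of a class are not independent readings.

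Most detected histone probes read higher in the pool labelled KO. Of the 35 detected probes 32 had a log2 change above 0 and 3 below, where 48.6% of all 11900 detected probes on the array were above 0. The median log2 change was 0.39, against -0.01 over all detected probes. Hist1h2ab and Hist1h4k, both among the 32, were detected in KO only. They entered through the pool where they read higher, which favours a positive sign. Among the 33 members detected in both pools the median was 0.34. By the rule of at least 1.5-fold, 6 of the 35 detected probes rose and 0 fell. Over the array 3.02% of detected probes passed as higher and 2.69% as lower. Among the 10882 detected probes within the members' range of signal, 2.53% passed as higher, 2.09% as lower and 48.8% were above 0. In the authors' normalized values 3 members passed as higher and 0 as lower, against 0.445% and 0.168% of detected probes. A higher signal from more dividing cells and from more histone RNA per cell cannot be told apart in bulk epidermis.

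**Figure D1:**
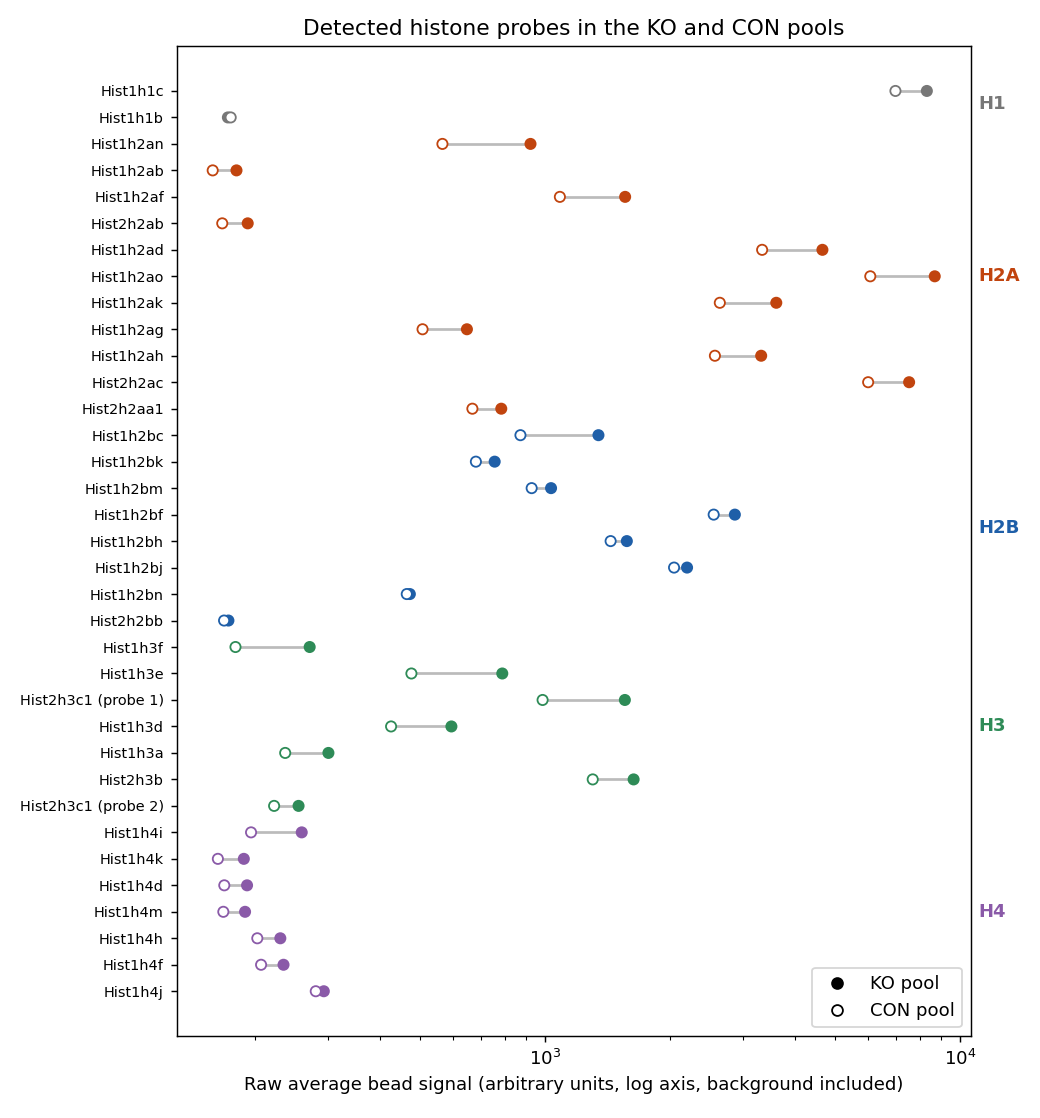
Raw bead signal (log axis, background included) of the 35 detected histone probes in the KO pool (filled) and the CON pool (open), grouped by class. The H2A and H3 probes are further apart between pools than most H2B probes, and all H4 probes lie at low signal, at most 292.8 in KO.

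The classes differed in the size of the change. H3 had the highest median log2 change at 0.58, followed by H2A at 0.46, H4 at 0.42 and H2B at 0.11. The 2 detected H1 probes went opposite ways and had a median of -0.02. Among probes detected in both pools the medians were 0.58 for H3, 0.44 for H2A, 0.36 for H4 and 0.11 for H2B. In the normalized table of the authors, where background was kept, the medians were 0.41 for H3, 0.32 for H2A, 0.14 for H4, 0.10 for H2B and 0.05 for H1. The order of H3, H2A and H2B was the same on both scales. H4 stood next to H2A on the first scale and next to H2B on the second.

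**Figure D2:**
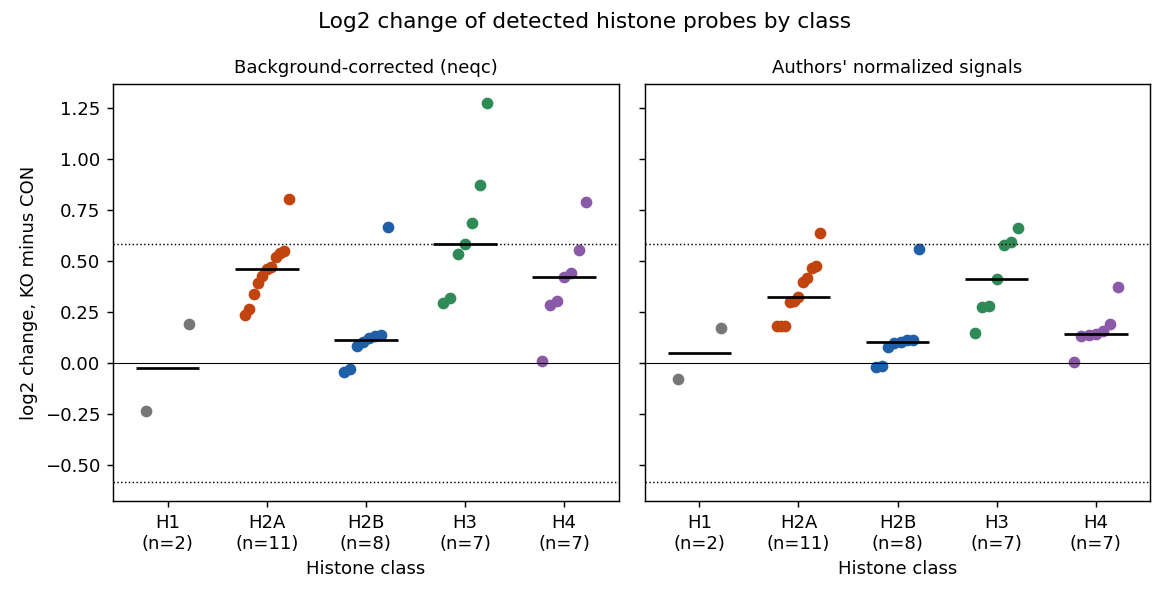
Log2 change, KO minus CON, of each detected probe by class, after background correction (left) and in the authors' normalized signals (right); black bars are medians and dotted lines mark 1.5-fold. All H2A, H3 and H4 points lie above 0, and the H2B points other than Hist1h2bc lie between -0.04 and 0.14.

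After background correction dim probes scattered more than bright probes. Percentiles 5 and 95 of the log2 change were -0.61 and 0.62 for detected probes with a mean log2 signal under 7, and -0.34 and 0.37 for those of at least 8. In the authors' values the order was the other way, with -0.23 and 0.23 for the dim and -0.28 and 0.30 for the bright probes. Of the 35 detected members 21 had a mean log2 signal of at least 8, and 20 of these were above 0, against 48.7% of all detected probes that bright. Of these 21, 4 rose by the 1.5-fold rule. Among all 6289 bright probes, 1.24% were at least 1.5-fold higher and 0.97% lower in KO; the percentile of 0.37 was exceeded by 10 of the 21 bright members, namely 6 of 9 H2A, 3 of 4 H3, 1 of 7 H2B and 0 of 1 H1 probes, against 5.01% of all bright probes. No H4 probe was that bright.

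**Figure D3:**
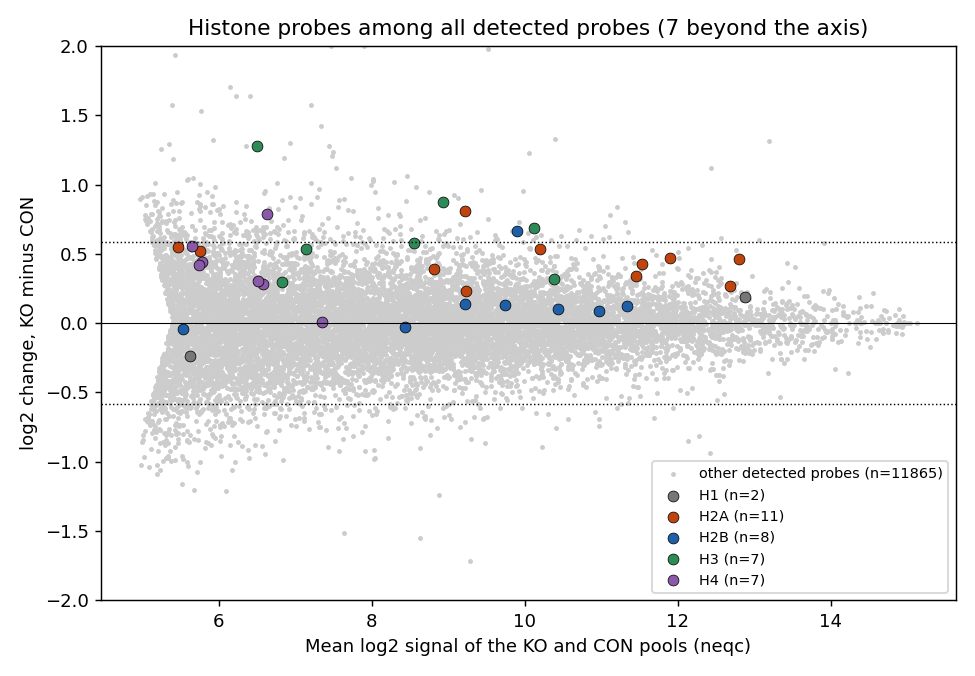
Log2 change, KO minus CON, against the mean log2 signal of both pools for all detected probes (grey) and the histone probes by class (colour); dotted lines mark 1.5-fold, and 7 other probes lie beyond the axis. Of the bright probes, 6 of 9 H2A, 3 of 4 H3 and 1 of 7 H2B lie above percentile 95 of all bright probes, and the others lie inside the grey cloud.

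H2A forms a dimer with H2B on the outer faces of the nucleosome. All 11 detected H2A probes read higher in KO, by log2 changes of 0.23 to 0.81. Hist1h2an (H2ac22 in RefSeq) read a raw signal of 922.5 in the KO pool, against 565.7 in the CON pool, and was the H2A probe that rose by the 1.5-fold rule. Its log2 change was 0.81, or 1.75-fold, and it was 1.56-fold higher in the authors' normalized values.

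The brightest H2A probes followed with smaller differences. Hist1h2ao read 8703.7 in KO and 6085.4 in CON, a log2 change of 0.46. Hist1h2ad read 4665.2 in KO and 3338.3 in CON (0.47), and Hist1h2ak 3611 in KO and 2639.1 in CON (0.42). These 3 were 1.34-fold to 1.38-fold higher, under the 1.5-fold rule. Hist1h2ah read 3320.4 in KO and 2568.1 in CON (0.34), and Hist1h2af 1560.1 in KO and 1085.9 in CON (0.54). Hist1h2ag read 648.1 in KO and 506.6 in CON (0.39). The Hist1 members therefore differed in the same direction over a wide range of signal.

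The H2A genes of the Hist2 cluster on chromosome 3 read higher by less at the bright end. Hist2h2ac read 7549.6 in KO and 6013.8 in CON, a log2 change of 0.27. Hist2h2aa1 read 784.3 in KO and 668.1 in CON, a log2 change of 0.23. The dim Hist2h2ab read 191.9 in KO and 166.6 in CON, a log2 change of 0.52 that was 0.18 in the authors' values. The median over the 3 Hist2 probes was 0.27, and over the 8 detected Hist1 probes 0.46.

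Hist1h2ab was detected in the KO pool only. It read 180.3 in KO and 158 in CON, and set against the lowest detected signal of the CON array it was at least 1.29-fold higher at the background offset of 16. That bound holds for this offset only, since an offset of 50 gave a log2 change of 0.31 and the authors' values 0.18 (1.13-fold). The remaining 4 H2A probes (Hist1h2aa, Hist1h2ac, Hist1h2ae and Hist3h2a) were detected in neither pool and read 134.7 to 151.8. Hist1h2aa is known as a histone gene of the testis.

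H2B probes differed little between the pools, apart from Hist1h2bc. Of the 8 detected, 6 had positive and 2 negative log2 changes. Hist1h2bc rose 1.59-fold, with 1345.3 in KO and 872.4 in CON. In the authors' values it was 1.47-fold higher and did not pass the rule. Without this gene the other 7 detected H2B probes lay between -0.04 and 0.14, with a median of 0.10.

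These 7 were close to equal in both pools. Hist1h2bf read 2868.9 in KO and 2550.8 in CON, a log2 change of 0.12. Hist1h2bj read 2200.2 in KO and 2047 in CON (0.08), and Hist1h2bh 1574.9 in KO and 1439.4 in CON (0.10). These 3 were 1.06-fold to 1.09-fold higher. Hist1h2bm read 1034 in KO and 928.5 in CON (0.13), and Hist1h2bk 756.1 in KO and 681.2 in CON (0.14). Hist1h2bn read 472.1 in KO and 464.1 in CON, a log2 change of -0.03. Hist2h2bb, the dimmest at 172.4 in KO and 168.3 in CON, had -0.04. The 8 undetected H2B probes read 133.7 to 161 and included second probes of Hist1h2bc and Hist2h2bb. They also included Hist1h2ba, a testis histone gene.

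The head-to-head pairs set H2A against H2B genes that share a promoter interval. In all 4 pairs the H2A gene had the larger log2 change, also in the authors' values. Every detected H2A probe was at 0.23 or more, and every detected H2B probe other than Hist1h2bc at 0.14 or less. Hist1h2bc was in none of the pairs found. Any other pairing of these probes would therefore give the same direction, and the pairs restate the class difference. Hist1h2ak and Hist1h2bn were furthest apart, with log2 changes of 0.42 and -0.03 and a difference of 0.45. The differences were 0.35 for Hist1h2ad over Hist1h2bf, 0.31 for Hist1h2ag over Hist1h2bj and 0.20 for Hist1h2ah over Hist1h2bk. In the authors' values these 4 differences were 0.41, 0.30, 0.22 and 0.22. The printed interval with the octamer was that of Hist1h2ah and Hist1h2bk, the pair with the smallest difference after background correction. In the authors' values its difference was 0.22, as was that of Hist1h2ag and Hist1h2bj, whose interval had no octamer. A link between the octamer and the difference was not tested. Because probes may read several genes of a class, each pair may in part show the class and not only its own genes.

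**Figure D4:**
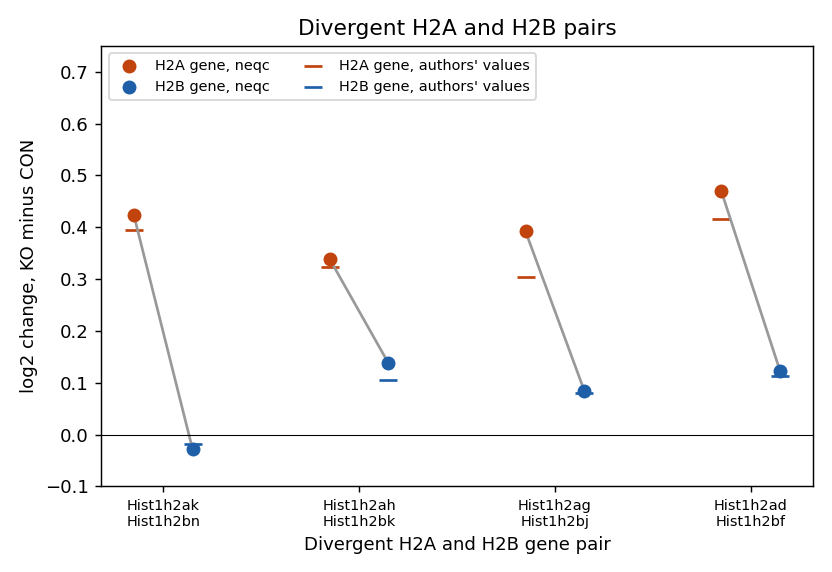
Log2 change, KO minus CON, of the H2A gene (left of each pair) and the H2B gene (right) in the 4 detected divergent pairs; points are background-corrected values and short bars the authors' normalized values. In each pair the H2A point is higher, by 0.20 to 0.45.

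H3 pairs with H4 in the core of the nucleosome. All 7 detected H3 probes read higher in KO, and 3 rose by the 1.5-fold rule. Hist1h3e (H3c6 in RefSeq) read 788.7 in KO and 476.2 in CON, which is 1.83-fold. The authors' normalized signals gave 1.58-fold. The brighter probe of Hist2h3c1 read 1557.8 in KO and 986.6 in CON, which is 1.61-fold, while the authors' signals gave 1.51-fold. Both passed the rule on either scale.

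Hist1h3f had the largest log2 change of all members at 1.28, but from a dim probe. It read 270.7 in KO and 179.3 in CON, which is 2.42-fold after background correction. It was the only member at least 2-fold higher, against 0.412% of detected probes. The authors' values gave 1.49-fold, just under the rule. The other 2 Hist1h3f probes were detected in neither pool, with 144.9 and 133.6 in KO and 134.1 and 141.6 in CON. The call for this gene thus rests on 1 of its 3 probes and on the background correction.

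The other H3 members read higher without passing the rule. Hist1h3d read 594.6 in KO and 425.4 in CON (a log2 change of 0.58, just under 1.5-fold), and Hist1h3a 300.4 in KO and 236.3 in CON (0.53). Hist2h3b read 1635.3 in KO and 1303.2 in CON (0.32). The dimmer Hist2h3c1 probe read 254.5 in KO and 222.2 in CON, a log2 change of 0.29 against 0.69 for its brighter probe, so the probes of that gene agreed in sign and not in size. The array annotates these probes with different accessions. The 5 undetected H3 probes (Hist1h3c, Hist1h3g, Hist1h3h and the 2 of Hist1h3f) read 133.6 to 159.7.

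H4 probes were dim in both pools, which limits what they show. All 7 detected H4 probes had log2 changes above 0, from 0.01 to 0.79. Hist1h4i rose 1.73-fold after background correction, with 259 in KO and 195.5 in CON, but was 1.29-fold higher in the authors' values. Hist1h4k was detected in KO only, with 187.8 in KO and 162.6 in CON, and was at least 1.45-fold higher at the background offset of 16. An offset of 50 gave a log2 change of 0.33 and the authors' values 0.19 (1.14-fold), so this bound too holds for 1 offset only.

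The remaining H4 genes spread around the class median. Hist1h4d read 191.2 in KO and 168.5 in CON (a log2 change of 0.44), and Hist1h4m 189.1 in KO and 167.6 in CON (0.42). Hist1h4h read 230 in KO and 202.4 in CON (0.30), and Hist1h4f 234.1 in KO and 206.7 in CON (0.28). Hist1h4j, the brightest H4 probe, read 292.8 in KO and 280 in CON and was nearly equal, with a log2 change of 0.01. Hist1h4b, Hist1h4c, Hist2h4 and Hist4h4 were undetected at 138.4 to 157.2.

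The linker histones did not move together. Hist1h1c, the brightest member of its class, read 8330.7 in KO and 6997.4 in CON, a log2 change of 0.19. Hist1h1b read 171.9 in KO and 174.6 in CON, close to background, with a log2 change of -0.23 that was -0.08 in the authors' values. The probes of Hist1h1a, Hist1h1d, Hist1h1e and the testis gene Hist1h1t were detected in neither pool, at 123.3 to 162.1. Over all classes, 12 of the 25 undetected probes had a log2 change above 0, with a median of -0.01.

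Replacement and variant histones are made outside S phase or from polyadenylated mRNAs, and as a list they read slightly higher in KO. Of 11 on the array 9 were detected, 7 with positive and 2 with negative log2 changes, and none passed the 1.5-fold rule. Over genes by their brightest detected probe, 3.1% passed as higher and 2.22% as lower, and 50.3% were above 0. The median log2 change was 0.25, against 0.00 over all such genes. H1f0, a linker histone of non-dividing cells, had the highest value at 0.57 (309.3 in KO and 239.8 in CON), and 0.29 in the authors' values. Cenpa, the centromeric H3, read 4282.6 in KO and 3170.8 in CON (0.42). H2afz, the H2A.Z gene, read 5524.1 in KO and 4427 in CON (0.29). H3f3a, an H3.3 gene, read 12854 in KO and 12181.9 in CON (0.01), and H2afy, the macroH2A gene, had the lowest value at -0.23 (2347.4 in KO and 2630.9 in CON).

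Genes that act on histone mRNAs and proteins differed less. Of 22 genes for the transcription, 3′ end processing and turnover of histone mRNA 14 were detected, 0 passed the rule in either direction and the median was -0.03. Cstf2, a cleavage factor subunit, had the highest value at 0.49 (1134.9 in KO and 822.6 in CON). Hinfp, a transcription factor of H4 genes, had the lowest at -0.27 (181.2 in KO and 186.7 in CON). Slbp, the stem-loop binding protein gene, was detected in neither pool. Of 16 detected genes of histone chaperones and deposition 1 rose and 0 fell, with a median of 0.05. Over all genes by their brightest detected probe, 3.1% rose and 2.22% fell. The risen chaperone gene was Asf1a, an H3-H4 chaperone (1.64-fold, with 219.5 in KO and 176.6 in CON). It was 1.22-fold higher in the authors' values. Ipo4, an importin that carries H3 and H4, was lowest at -0.29 (616.9 in KO and 707.2 in CON).

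S phase genes read higher by less than the H2A and H3 probes. Of 35 detected genes of DNA replication and S phase 28 had positive and 7 negative log2 changes, with a median of 0.09. Over all genes by their brightest detected probe, 50.3% were above 0. By the 1.5-fold rule 2 of the 35 rose, against 3.1% of all such genes. Both were detected in KO only. Ccne1, the cyclin E1 gene, read 200.2 in KO and 156.5 in CON, and Cdc6, a replication licensing gene, 198.7 in KO and 161.9 in CON. Their lower bounds were log2 changes of 0.80 and 0.77. The authors' values gave 0.37 for Ccne1 and 0.29 for Cdc6, under these bounds and under the rule. The bounds therefore hold for the background offset used only. Cdc45, a helicase subunit gene, was lowest at -0.21 (311.9 in KO and 327.7 in CON). Of 3 proliferation markers, Ccnb1 read 520 in KO and 343 in CON (0.78), Top2a 1034.7 in KO and 778.2 in CON (0.44), and Pcna 164.1 in KO and 164.3 in CON. Pcna was not detected in KO, and with that array's lowest detected signal in its place the log2 change was -0.02. Their summed normalized signal was 1679 in KO and 1314 in CON. The part of dividing cells in the histone result was not tested.

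**Figure D5:**
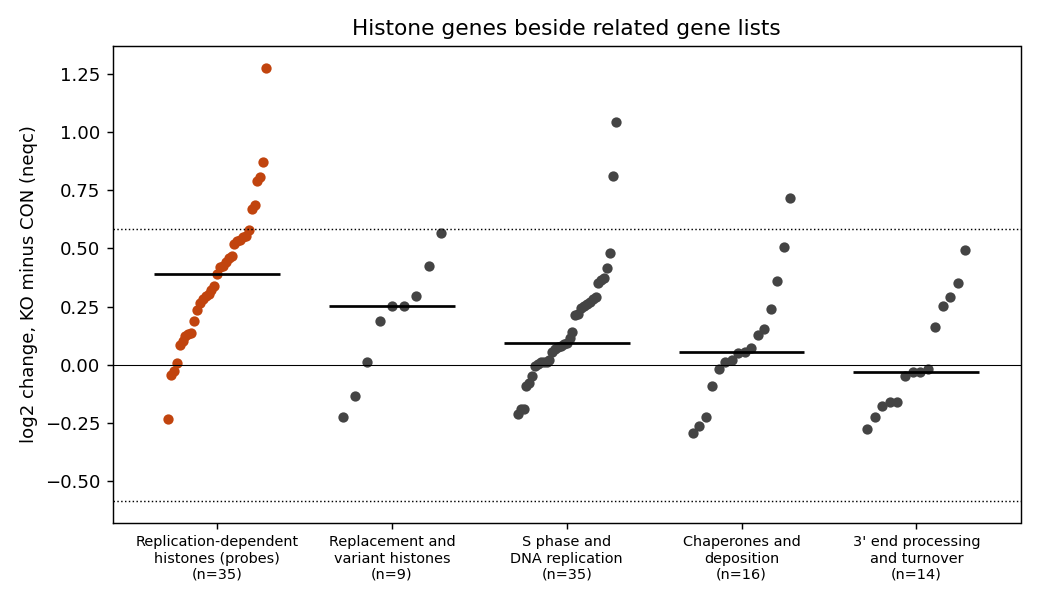
Log2 change, KO minus CON, of the detected histone probes (red) and of the detected genes of 4 related lists by their brightest probe (dark grey); black bars are medians and dotted lines mark 1.5-fold. The medians are 0.39 for the histone probes, 0.25 for replacement and variant histones, 0.09 for S phase, 0.05 for chaperones and -0.03 for 3′ end processing and turnover.

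The tissue label was checked against marker genes. All 4 basal (Krt5, Krt14, Trp63, Col17a1) and 4 suprabasal (Krt1, Krt10, Lor, Ivl) keratinocyte markers were detected, with log2 changes of -0.17 to 0.16 and -0.38 to 0.01. Melanocyte markers were detected for 4 of 5 genes, with 0 above 0 and a median of -0.20. All 3 T cell markers were detected and above 0, with a median of 0.16. All 3 Langerhans cell markers were detected, 2 above and 1 below 0, with a median of 0.05. In these 3 lists 0 genes passed the 1.5-fold rule. Of the fibroblast markers 2 of 6 were detected, with summed normalized signals of 782 in KO and 879.3 in CON, and of the endothelial markers 0 of 3. Of the fibroblast markers Col1a1 fell, with 173.1 in KO and 202.3 in CON and a log2 change of -0.83, which was 1.24-fold lower in the authors' values, and Dcn had -0.16. Of the skeletal muscle markers 3 of 5 were detected, with summed normalized signals of 654.2 in KO and 467.7 in CON. All 3 rose by the 1.5-fold rule, against 3.1% of all genes by their brightest detected probe. In the authors' values 1 of 3 rose, against 0.445% of detected probes. Myl1 had a log2 change of 1.64 (278.6 in KO and 169.2 in CON), larger than that of any detected histone probe. Myh8 (190.7 in KO and 144.5 in CON) and Acta1 (170.1 in KO and 147.8 in CON) were detected in KO only. Their fitted log2 changes were 1.29 and 0.62, with lower bounds of 0.61 and 0.05. The authors' values gave 0.44 for Myh8, under its bound, and 0.20 for Acta1, above its bound. These bounds too hold for the background offset used only. Tnnc2 and Ckm were detected in neither pool. The second probes of Myl1 (133.7 in KO and 133.6 in CON) and Myh8 (147.3 in KO and 144.5 in CON) were also detected in neither. The part of the muscle markers in the histone result was not tested. The brightest Vdr probe read 2442.1 in KO and 1913 in CON. The other 2 Vdr probes read 1559.6 and 189 in KO and 1203.7 and 193 in CON. The labels do not state where these probes lie relative to the deleted part, so they check nothing, and every direction here is that of the pool labelled KO.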

How the data were processed

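RNA from the epidermis of 3 mice per genotype was combined, labelled with biotin and hybridised to Illumina bead arrays, per the labels. GenomeStudio 2011.1 is named in the submitters' processing notes. Deposited for every probe, per the file headers, were a non-normalized bead intensity (background included) and its detection p-value. Genotypes were taken from the sample titles. A deposited normalized intensity table held sorted signals that agreed between arrays within 0.3, as quantile normalization leaves them, and kept the background. The series matrix differed from it at 0 probes.

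The non-normalized intensities were background-corrected, quantile-normalized and put on the log2 scale with neqc (limma 3.58.1, R 4.3.3, offset 16), using the detection p-values. Later steps used Python 3.11.15, numpy 2.4.6, pandas 2.3.3 and matplotlib 3.10.9. The normalization was run on simulated data, but no result of that run is given here. Its accuracy for dim probes is therefore not shown. Detection p-values were under 0.01 for 44.4% of probes in KO and 44.8% in CON. Probes were matched to RefSeq genes of GRCm38.p6, the members by Entrez identifier (45) or accession (15). No assembly is named for the array itself. A lower bound takes, for a probe undetected in 1 pool, its own signal there or that array's lowest detected signal, whichever is higher. With 1 pool per genotype, changes were called by size only.

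Every member detected in at least 1 pool is named with its values. From each related list the members changed 1.5-fold and those with the largest rise and fall are named, while H2afz, H3f3a, Cenpa, Slbp and the promoters shown were picked after their values were seen. The members and lists were chosen with earlier results of these data known.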

Additional observations from a re-analysis of the deposited data

How the results depend on the processing

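Each count and median was recomputed under 10 or 11 other settings for the classes and under 9 for the related lists, 1 of these added after the data were seen, in which each detected probe was counted once. In the authors' normalized values the median log2 change was 0.18 over all members, 0.32 for H2A, 0.41 for H3 and 0.14 for H4, and the members at least 1.5-fold higher were 3 over all classes, 0 for H2B and 0 for H4. Without background correction the medians were 0.19, 0.32, 0.44 and 0.13, with 0 H4 members higher. An offset of 50 gave an H4 median of 0.26. With detection at 0.05 the H1 median was -0.23 and the H4 median 0.3, and 2 members were at least 1.5-fold lower, 1 in H1 and 1 in H3. With all probes, detected or not, the medians were 0.22 over all members, 0.31 for H3 and 0.28 for H4, and again 2 members were lower, 1 in H1 and 1 in H3. The share of all probes on the array called lower was not computed at these settings. The counts of lower members there are therefore a description only. At 2-fold 1 member was higher, in H3, and 0 in H2A, H2B and H4. The risen chaperone gene was lost (0 higher) in the authors' values, without background correction and with an offset of 50. The number of S phase genes higher was 0 in the authors' values, without background correction and among genes detected in both pools, and 1 with an offset of 50, and 1 was lower with each probe counted once. Hist1h3f had 0.58 in the authors' values and 0.54 without background correction, Hist1h4i 0.37 and 0.35, and Hist1h2bc 0.56 in the authors' values. No called member changed sign under the 4 other scalings. No paired analysis was possible because each genotype had 1 pool. Dim probes, all of H4 among them, depend on the background model.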

Other observations

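Among detected H3 and H2A probes, the median log2 change was larger in the Hist1 cluster on chromosome 13 than in the Hist2 cluster on chromosome 3, though single members overlapped. For H3 the median was 0.73 over 4 detected Hist1 probes and 0.32 over 3 detected Hist2 probes, and in the authors' normalized values 0.50 and 0.28. The 3 Hist2 probes were of 2 genes. All 5 undetected H3 probes were of Hist1, with a median of -0.01, and 0 were of Hist2. The order for H3 therefore holds for detected probes only. The H2A medians in the authors' values were 0.41 over 8 Hist1 probes and 0.18 over 3 Hist2 probes. These differences were not tested.

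The lowest log2 changes among all 60 probes came from members detected in neither pool, at -0.68 for Hist1h1d and -0.69 for Hist1h3h. Hist1h1d read 147.7 in KO and 162.1 in CON, and Hist1h3h 144.3 in KO and 159.7 in CON. Their detection p-values in CON were 0.0125 and 0.0213, just outside the limit, so a looser limit brings them in as lower in KO.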
